A study of Mus musculus with 49 samples.

Results

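The 9 genes described here encode the subunits of the kainate receptors, Grik1 to Grik5, and of the AMPA receptors, Gria1 to Gria4. They were taken by name from the table of 52636 genes, and all 9 were found. Both receptor families are tetrameric channels that open when glutamate binds, and they carry fast excitatory input onto medium spiny neurons (MSNs), the projection neurons of the striatum and nucleus accumbens (NAc). Grik1, Grik2 and Grik3 encode kainate subunits that can form channels on their own, while Grik4 and Grik5 encode high-affinity subunits that need one of these partners. Among AMPA subunits, Gria2 sets calcium permeability, since its RNA is edited at the codon that lines the pore, and channels without Gria2 pass calcium.

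MSNs fall into cells with the dopamine receptor Drd1 (D1-MSNs) and cells with Drd2 (D2-MSNs), and the study compared methods of isolating their RNA from the NAc of mice on a C57BL/6J background. Ages, and treatments other than the transgenes, were not given in the sources used here. For nuclear-FACS, nuclei were sorted from frozen tissue of Drd1-cre or Drd2-cre mice, each crossed to a Thy1-driven EGFP line whose stop cassette Cre removes (6 D1 and 5 D2 libraries). For whole cell-FACS, papain-treated cells were sorted for a cytoplasmic fluorophore driven by the promoter of Drd1 or Drd2 (8 D1 and 6 D2 libraries). For RiboTag, polysomes were precipitated from Drd1-cre or Drd2-cre mice in which Cre switches on an HA-tagged Rpl22, in libraries labelled male (6 and 6) and labelled female (5 and 5). In every method the driver is a dopamine receptor promoter, so any cell in which it is active can enter a sample. In these bulk libraries, fewer cells of a type and less RNA per cell cannot be told apart.

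Total counts ran from 10476223 to 27965357 in whole cell, from 3701255 to 68777008 in nuclear and from 24076888 to 45641342 in RiboTag libraries, Drd1 was lower and Drd2 higher in D2 libraries in all 4 sets, and 5 of 5 D2-MSN markers were higher in D2-MSNs in whole cell and both RiboTag sets. In nuclear libraries 1 of 4 tested D2-MSN markers was higher and 1 lower, the latter being Penk at -2.42 (SE 0.456, adjusted p = 0.00923, edgeR). Drd2 was higher in D2-MSNs of RiboTag libraries labelled male by a log2 fold change of 2.71 (SE 0.105, adjusted p = 2.54e-15, edgeR), and in nuclear libraries by 1.74 (SE 0.210, adjusted p = 0.00221, edgeR). Of the 12 RiboTag libraries labelled male, 6 (4 D1 and 2 D2) held fewer counts on 4 Y-linked genes than on Xist, against none of 11 nuclear and 14 whole cell libraries, so these libraries go against their sex label and "labelled male" and "labelled female" are used throughout. Fragments on olfactory and vomeronasal receptor genes, which MSNs are not known to use, came to 0.905 to 6.64 counts per kilobase, not scaled to depth, in whole cell libraries. They came to 0.0493 to 7.48 in nuclear D1, 0.977 to 15.7 in nuclear D2 and 0.00484 to 0.0180 in RiboTag libraries. This density, scaled to a gene's length, is called background below.

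The members span 62.5 kb (Grik5) to 693.9 kb (Grik2) of the mouse genome GRCm38, and the deposited counts cover the whole gene body, introns included. Grik3, which carries the main difference below, lies at chr4:125490700-125714173 on the plus strand and has exons over 4.02% of its span. Gria2 lies at chr3:80681450-80802835 on the minus strand with exons over 12.8% of its span. The other kainate genes are Grik1 (chr16:87895900-88290265, minus), Grik2 (chr10:49094833-49788766, minus), Grik4 (chr9:42518135-42944493, minus) and Grik5 (chr7:25009849-25072346, minus). The other AMPA genes are Gria1 (chr11:57011387-57330244, plus), Gria3 (chrX:41400854-41678601, plus) and Gria4 (chr9:4417896-4796234, minus). Counting ignored strand, but other genes covered at most 2.47% of any member's span, with this highest share in Grik2.

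Background weighed unequally on the members. In whole cell libraries it came to 47.8 to 75.8% of the Grik1 count and 22.1 to 49.8% of the Grik4 count, so that a large part of the fragments on both genes was of the density found on olfactory receptor genes. For Gria2, the densest member, it came to 0.655 to 15.5%. For Grik3 it differed between the cell types of a method. It was 36.1 to 48.9% in whole cell D1 against 3.47 to 24.7% in whole cell D2, and 1.25 to 17.8% in nuclear D1 against 14.7 to 35.1% in nuclear D2. In RiboTag libraries it stayed at or below 0.538% for Grik3 and 0.0400% for Gria2, with 4.71 to 11.7% for Grik1.

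**Figure D1:**
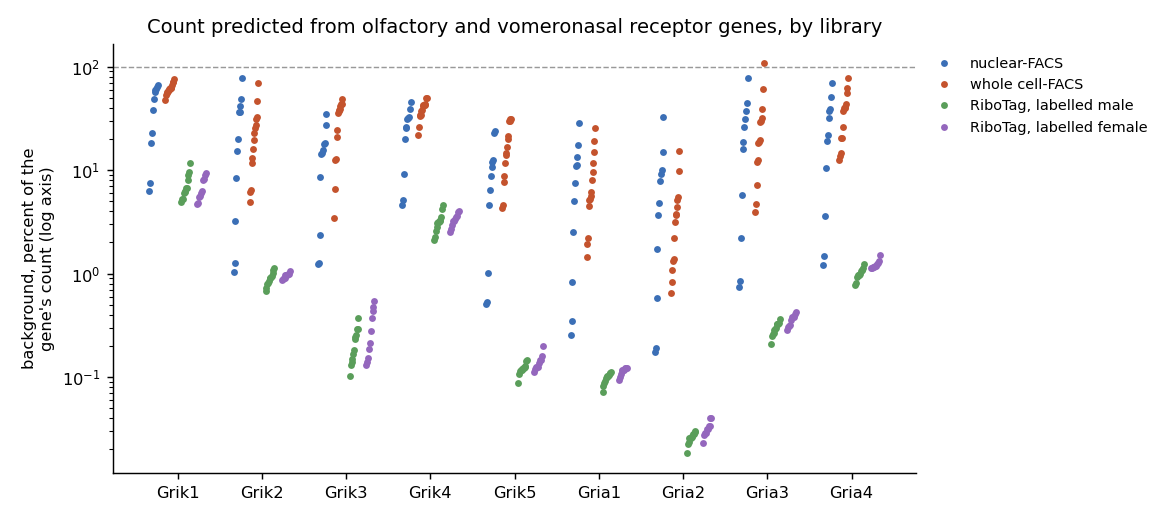
Background predicted from olfactory and vomeronasal receptor genes as a percent of each member's count (log axis), with 1 point per library and colours for the methods. RiboTag points lie below every whole cell point of the same member and overlap the lowest nuclear points for Grik1, Grik2 and Gria4, and whole cell points for Grik1 lie between 47.8 and 75.8%.

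Levels are given as FPKM over the gene body, fragments scaled to its length in kilobases and to the library size (here over tested genes, scaled by TMM within a set), and are not comparable between methods. The upper ranks in RiboTag libraries labelled male had the same order in both cell types. In D1-MSNs, Gria2 (1.02 ± 0.0352, SD, n = 6) stood above Gria1 (0.275 ± 0.0318), which stood above Grik5 (0.229 ± 0.0142) with ranges that overlapped. Grik3 (0.0992 ± 0.0120) and Gria3 (0.0904 ± 0.00811) overlapped in D1-MSNs. In D2-MSNs, Grik3 (0.192 ± 0.00657) stood clear of both Grik5 above it (0.233 ± 0.0164) and Gria3 below it (0.0991 ± 0.00785). Grik2 (0.0317 ± 0.00445 in D1-MSNs) and Gria4 (0.0285 ± 0.00385) did not differ beyond their spread, and Grik4 (0.00853 ± 0.00191) and Grik1 (0.00406 ± 0.00139) were lowest. In libraries labelled female, Gria2 was again highest (1.11 ± 0.0412 in D1-MSNs, n = 5) and Grik1 lowest (0.00612 ± 0.00257).

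The order depended on which length was used, because fragments of spliced RNA fall on exons. Per kilobase of exons, Gria1 (14.5 ± 1.68 in RiboTag D1 labelled male, n = 6) stood above Gria2 (7.98 ± 0.275). The exons sum to 15548 bases in Gria2 and 6043 in Gria1. On the same exon scale, Grik3 overlapped Grik5 in RiboTag D1-MSNs (2.47 ± 0.300 against 2.77 ± 0.171) and stood clear above it in D2-MSNs (4.79 ± 0.164 against 2.81 ± 0.199). In nuclear and whole cell libraries the gene body scale also put Gria2 first, with 10.0 ± 2.91 in nuclear D1-MSNs (n = 6), 6.02 ± 1.61 in nuclear D2-MSNs (n = 5), 12.3 ± 4.68 in whole cell D1-MSNs (n = 8) and 11.7 ± 2.59 in whole cell D2-MSNs (n = 6). In both nuclear groups and in whole cell D1-MSNs its range overlapped that of Gria1, the next member.

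D2-MSNs were compared with D1-MSNs within each set to ask which subunits differ between the cell types. Among the members that passed the filter on low values in a set, Grik3 differed most. That filter used FPKM scaled by size factors, not the TMM-scaled levels given here. It took all libraries of a set together, so a member could pass through 1 cell type alone. Grik3 did so in whole cell libraries (highest 0.735 in D1 and 2.63 in D2). In nuclear libraries Grik2, Gria3 and Gria4 passed through D1 libraries alone (highest in D2 0.481, 0.648 and 0.532). The ranking rests on this entry. The Grik3 level in D2-MSNs was 1.80 to 2.42 times that in D1-MSNs in the 4 sets as fitted. It passed the full call rule in nuclear and both RiboTag sets and narrowly missed it in whole cell libraries. The rule asks for an adjusted p of at most 0.05 from edgeR's quasi-likelihood test, a log2 fold change beyond 0.38 in either direction and a mean count above the 25th percentile. For nuclear libraries it also asks for an SE below the 75th percentile. Gria2 was lower in D2-MSNs in nuclear libraries, and no other member was called in any set. Grik4 and Grik1 failed the filter on low values in all 4 sets and are not ranked here. On the size-factor scale of the filter they reached at most 0.675 and 0.360 in nuclear libraries. On the TMM scale of the levels, which the filter did not use, their nuclear means were 0.78 and 0.54 in D1-MSNs and 2.20 and 1.29 in D2-MSNs, background included. With background subtracted, the means were 0.62 and 0.38 in D1-MSNs and 1.43 and 0.52 in D2-MSNs.

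For RiboTag libraries labelled male, Grik3 lay at 0.0778, 0.102 and 0.111 (lowest, median and highest) in the 6 D1 libraries and at 0.186, 0.1896 and 0.201 in the 6 D2 libraries. Every D2 library stood above every D1 library. The log2 fold change was 0.95 (SE 0.0625, 95% interval 0.83 to 1.08, adjusted p = 6.46e-11, edgeR). In this set 5 of 9 members passed the filter on low values and 1 was called, where 2.56% of all 6784 tested genes were called. Leaving out the 6 libraries that went against their sex label (4 of 6 D1 and 2 of 6 D2) kept only numbers 5 and 6 of the D1 libraries. The Grik3 difference was then 0.92 (adjusted p = 3.28e-07, edgeR). With all 22 RiboTag libraries in one fit it was 1.04 (adjusted p = 4.71e-14, edgeR).

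For RiboTag libraries labelled female, Grik3 lay at 0.0952, 0.0991, 0.118, 0.0740 and 0.0868 in the D1 libraries numbered 1, 2, 4, 5 and 6. It lay at 0.237, 0.177, 0.217, 0.224 and 0.191 in the D2 libraries numbered 1, 2, 3, 5 and 6. The lowest D2 library stood well above the highest D1 library. On the scale of the filter the D1 median was 0.0927, below the 0.1 needed in 2 libraries, so Grik3 passed mainly through D2 libraries. The log2 fold change was 1.15 (SE 0.0954, 95% interval 0.95 to 1.35, adjusted p = 5.44e-08, edgeR), and 1 of 5 tested members was called against 1.9% of 7057 genes.

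Markers of cholinergic interneurons, which are known to express Drd2, moved in the same direction as Grik3 in RiboTag libraries. Chat, the enzyme that makes acetylcholine, lay at 0.00337 to 0.00955 FPKM in D1 and 0.0274 to 0.0369 in D2 libraries labelled male. Slc5a7, the choline transporter, lay at 0.00119 to 0.0182 in D1 and 0.0677 to 0.0912 in D2 libraries labelled male. For both genes every D2 library stood above every D1 library, also in those labelled female. Both failed the filter on low values, and without it Chat was higher in D2-MSNs by 2.42 (adjusted p = 9.01e-09, edgeR) and Slc5a7 by 2.81 (adjusted p = 1.42e-08, edgeR) in libraries labelled male. In libraries labelled female the values were 1.92 (adjusted p = 0.000618, edgeR) and 2.28 (adjusted p = 0.000594, edgeR). In whole cell libraries, without the filter, Chat was at 0.32 and Slc5a7 at -0.47, neither passing, and the ranges of D1 and D2 libraries overlapped for both. Nuclear libraries gave 0.62 (adjusted p = 0.0986, edgeR) for Chat and 0.33 (adjusted p = 0.366, edgeR) for Slc5a7. The part of cholinergic interneurons in the Grik3 difference was not tested.

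In whole cell libraries, Grik3 lay at 0.389, 0.943 and 2.07 (lowest, median and highest) in 8 D1 libraries and at 1.55, 2.73 and 3.38 in 6 D2 libraries. The groups overlapped through D1 numbers 2 and 8, at 1.75 and 2.07, and these were the D1 libraries with the highest background, 4.41 and 4.30 counts per kilobase. The log2 fold change was 1.28 (SE 0.314, 95% interval 0.62 to 1.93, adjusted p = 0.0508, edgeR). None of the 6 tested members was called by edgeR, with 2 at an unadjusted p under 0.05, where edgeR called 1.06% of 16352 genes. DESeq2 called 3 members, and it also called more genes in all than edgeR, as given under processing. Grik3 passed the call rule in 8 of 10 alternatives that did not leave out a library, with adjusted p values from 0.00726 to 0.0664, and it also passed when 1 of 4 libraries was left out. These were D1 number 2 (1.42, adjusted p = 0.0365, edgeR), D1 number 8 (1.49, adjusted p = 0.0120, edgeR), D2 number 1 (1.49, adjusted p = 0.0232, edgeR) and D2 number 2 (1.38, adjusted p = 0.0409, edgeR). With background subtracted the difference was 1.70 (adjusted p = 0.0390, edgeR). A second column named for D1 number 1 was summed with it here, although it could be another mouse. Kept as its own library, it gave Grik3 at 1.32 with adjusted p = 0.0255 (edgeR), so that 1 member was called.

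In nuclear libraries, Grik3 lay at 1.65, 2.02 and 2.28 (lowest, median and highest) in 6 D1 libraries and at 2.67, 3.76, 3.42, 3.91 and 4.22 in D2 libraries 1, 2, 3, 5 and 7. The groups did not overlap on this scale, and the log2 fold change was 0.85 (SE 0.143, 95% interval 0.55 to 1.16, adjusted p = 0.00923, edgeR). Of 7 tested members 2 were called, where 12.2% of all 9228 tested genes were called, 836 of them lower and 294 higher in D2-MSNs. This difference depended on the filter on low values and the scaling that goes with it. Without the FPKM filter, Grik3 was at -0.26 (adjusted p = 0.333, edgeR), and 7 of 9 members were called, 6 of them lower in D2-MSNs, where 23.6% of 30791 genes were called. Over 8 alternatives that left out no library, Grik3 was called in 3 and ran from -0.26 to 0.93. On FPKM scaled by size factors over all genes above 1 FPM (fragments scaled to library size), its mean was 0.918 in D1 and 0.953 in D2 libraries.

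**Figure D2:**
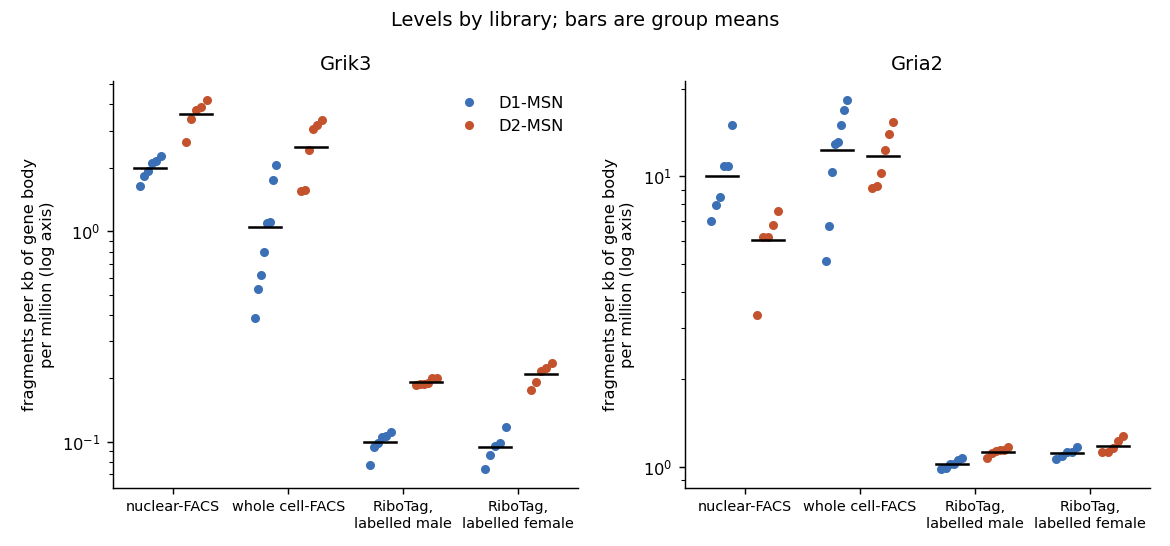
Levels of Grik3 and Gria2 as FPKM over the gene body with TMM-scaled library sizes (log axis), with 1 point per library, bars for group means, blue for D1- and orange for D2-MSNs. Grik3 points of D2-MSNs lie above those of D1-MSNs in nuclear and both RiboTag sets and overlap them in whole cell libraries.

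The AMPA subunits differed little in RiboTag libraries. Gria2 lay at 0.980, 1.02 and 1.07 (lowest, median and highest) in the 6 D1 libraries labelled male and at 1.07, 1.14 and 1.17 in the 6 D2 libraries. The highest D1 library (1.068) lay just below the lowest D2 library (1.069), and the log2 fold change of 0.14 (SE 0.0404, 95% interval 0.06 to 0.23, adjusted p = 0.0260, edgeR) was below the fold threshold of the call rule. Without the 6 libraries against their sex label it was 0.09 (adjusted p = 0.587, edgeR), with only numbers 5 and 6 of the D1 libraries kept. In libraries labelled female Gria2 was at 0.09 (95% interval -0.02 to 0.19, adjusted p = 0.442, edgeR). Gria1, the subunit inserted into synapses with plasticity, was at 0.11 (95% interval -0.01 to 0.24, adjusted p = 0.309, edgeR) in libraries labelled male and at -0.04 (95% interval -0.19 to 0.11, adjusted p = 0.871, edgeR) in those labelled female. Gria3, which lies on chromosome X, was at 0.13 (95% interval 0.01 to 0.26, adjusted p = 0.209, edgeR) and 0.09 (95% interval -0.05 to 0.22, adjusted p = 0.574, edgeR). All these intervals lie within the 0.38 threshold.

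In nuclear libraries, Gria2 lay at 7.01, 9.67 and 15.1 (lowest, median and highest) in 6 D1 libraries and at 6.18, 7.58, 6.81, 3.32 and 6.19 in D2 libraries 1, 2, 3, 5 and 7. D2 number 2 reached into the D1 range and D2 number 5 was far below the rest. Gria2 was lower in D2-MSNs by a log2 fold change of -0.74 (SE 0.230, adjusted p = 0.0427, edgeR), and it lost the call when any of 8 of the 11 libraries was left out, namely D1 numbers 1, 2 and 4 and each of the 5 D2 libraries. Over the 11 omissions the adjusted p ran from 0.0289 to 0.120 and the difference from -0.87 to -0.55. With background subtracted it was -0.61 (adjusted p = 0.0882, edgeR). Gria1 was at -0.43 (SE 0.199, adjusted p = 0.151, edgeR) and Gria3 at -0.43 (SE 0.216, adjusted p = 0.179, edgeR). Without the FPKM filter the nuclear differences were larger, at -1.58 for Gria1 (adjusted p = 0.00628, edgeR), -1.88 for Gria2 (adjusted p = 0.00583, edgeR) and -1.57 for Gria3 (adjusted p = 0.00650, edgeR). Gria1 and Gria3 were each called in 4 of 8 alternatives that left out no library, and Gria2 in 6. Gria4, at 0.04 (SE 0.172, adjusted p = 0.898, edgeR), had background of 32.0 to 69.9% of its count in D2 libraries. Whole cell libraries gave Gria1 at 0.45 (SE 0.222, adjusted p = 0.367, edgeR), Gria3 at 0.39 (SE 0.223, adjusted p = 0.466, edgeR) and Gria2 at -0.07 (95% interval -0.61 to 0.46, adjusted p = 0.961, edgeR).

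Among the other kainate subunits, Grik5 was at 0.02 (95% interval -0.09 to 0.14, adjusted p = 0.870, edgeR) in RiboTag libraries labelled male and at 0.09 (95% interval -0.03 to 0.21, adjusted p = 0.528, edgeR) in those labelled female. Whole cell libraries gave 0.49 (SE 0.183, adjusted p = 0.189, edgeR) and nuclear libraries 0.14 (SE 0.120, adjusted p = 0.441, edgeR). Grik2, the subunit also known as GluK2, was tested in nuclear libraries, at -0.24 (SE 0.167, adjusted p = 0.328, edgeR; -1.36 with adjusted p = 0.00565 without the FPKM filter), and in whole cell libraries, at -0.08 (SE 0.198, adjusted p = 0.943, edgeR). In RiboTag libraries Grik2 failed the filter on low values, and without it stood at -0.04 (adjusted p = 0.803, edgeR) in those labelled male and -0.15 (adjusted p = 0.522, edgeR) in those labelled female. Gria4 failed it in whole cell and both RiboTag sets, and without it stood at -0.19 (adjusted p = 1, edgeR), -0.07 (adjusted p = 0.652, edgeR) and -0.25 (adjusted p = 0.290, edgeR). Grik1 and Grik4 failed it in all 4 sets. Without that filter, Grik4 was at 0.49 in nuclear libraries (adjusted p = 0.0354, edgeR), where background made up 26.0 to 45.8% of its D2 count. Its values in the other sets lay between -0.002 and 0.15, with adjusted p values of 0.556 or above. Grik1 lay between -0.20 and 0.26 over the 4 sets, with adjusted p values of 0.328 or above. The median log2 fold change of the tested members was -0.243 in nuclear, 0.417 in whole cell, 0.131 in RiboTag labelled male and 0.0862 in RiboTag labelled female libraries, beside 0.0346, -0.0899, 0.00121 and -0.000196 over all tested genes. These medians rest on the members that passed the filter, some of them through 1 cell type alone.

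**Figure D3:**
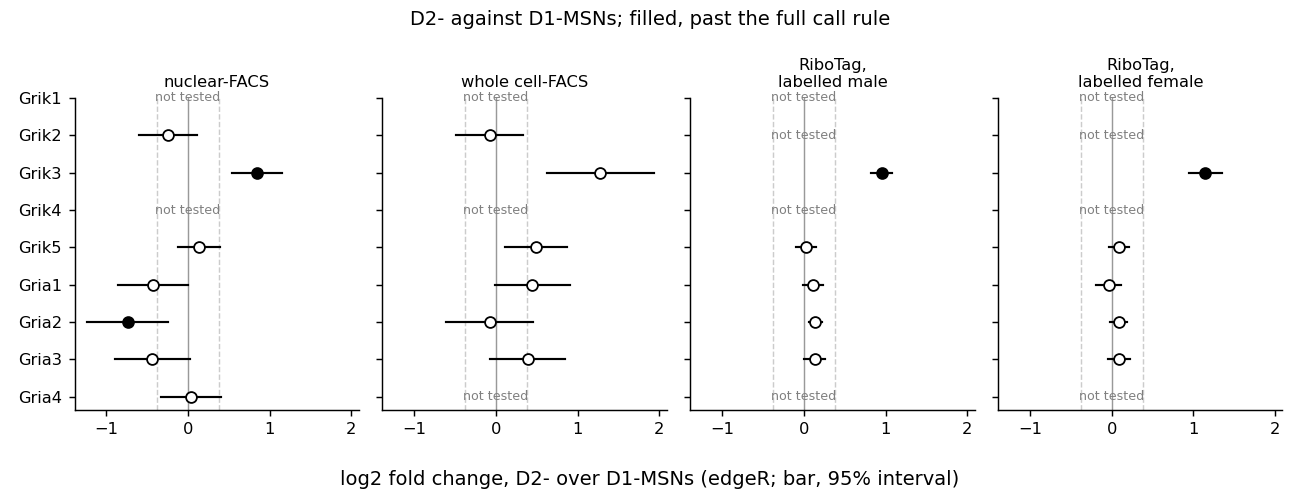
Log2 fold changes of D2- over D1-MSNs for the 9 members in the 4 sets, with 95% intervals, filled where the full call rule was passed and dashed lines at the fold threshold of 0.38. Grik3 lies to the right in every set, from 0.85 in nuclear to 1.28 in whole cell libraries, where it is open.

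A ratio of 2 members within a library does not depend on how libraries are scaled. The log2 ratio of Grik3 to Gria2 counts was -2.49 ± 0.175 (SD, n = 6) in D1 and -1.67 ± 0.0464 (n = 6) in D2 RiboTag libraries labelled male, a difference of 0.82 (exact permutation p = 0.00217, adjusted p = 0.0173 over 8 tests). In libraries labelled female it differed by 1.07 (exact permutation p = 0.00794, adjusted p = 0.0173), and in nuclear libraries by 1.59 (exact permutation p = 0.00433, adjusted p = 0.0173). In each of these 3 sets the groups did not overlap, and the p is the smallest that their sizes allow in this two-sided test. The ratio rises with more Grik3 or with less Gria2, so it does not give the Grik3 difference alone. In nuclear libraries Gria2 was itself called lower in D2-MSNs. Without the FPKM filter, Grik3 was at -0.26 and Gria2 at -1.88 there. In whole cell libraries it was -2.78 ± 1.45 (n = 8) against -1.38 ± 0.714 (n = 6), and the difference of 1.4 did not pass (exact permutation p = 0.0546, adjusted p = 0.0874), whereas with background subtracted it was 1.92 (adjusted p = 0.0400, exact permutation test).

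The log2 ratio of Gria1 to Gria2 differed in nuclear libraries by 0.35 (exact permutation p = 0.00866, adjusted p = 0.0173), from 0.80 ± 0.144 (n = 6) to 1.15 ± 0.266 (n = 5), with overlapping ranges. It differed by -0.02 in RiboTag libraries labelled male (exact permutation p = 0.814, adjusted p = 0.814), by -0.11 in those labelled female (exact permutation p = 0.286, adjusted p = 0.327) and by 0.46 in whole cell libraries (exact permutation p = 0.127, adjusted p = 0.169). All 8 tests were two-sided.

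**Figure D4:**
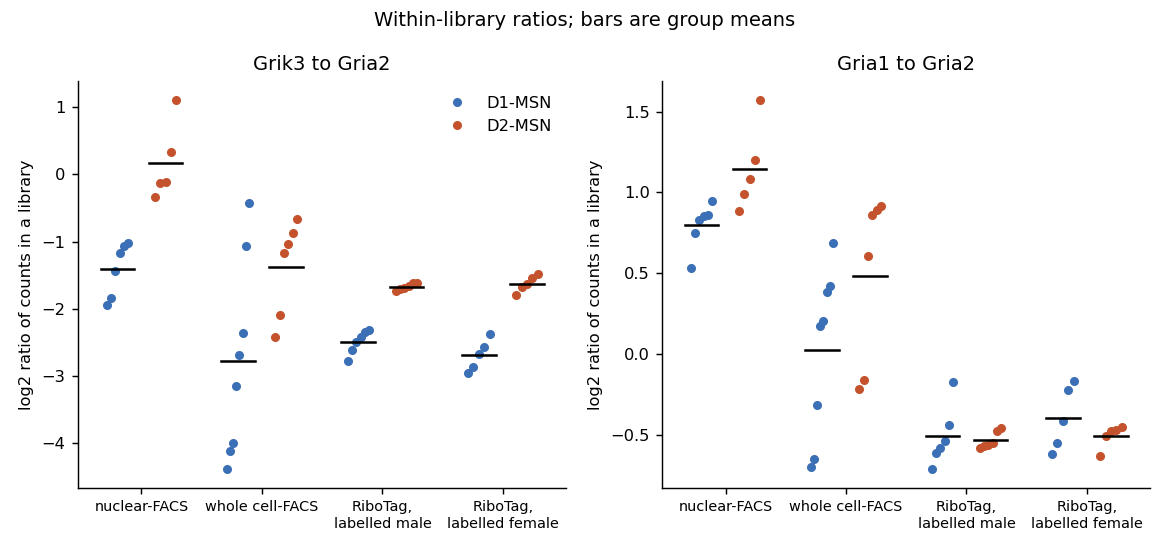
Log2 ratios of counts within a library for Grik3 to Gria2 and Gria1 to Gria2, with 1 point per library and bars for group means. For Grik3 to Gria2, D2 points lie above all D1 points in nuclear and both RiboTag sets, with means of 0.17 against -1.41 in nuclear libraries.

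The make-up of each receptor family was described from counts per kilobase of gene body. Grik5 of RiboTag libraries labelled male held 61.4 ± 2.48% of the kainate sum in D1-MSNs and 49.5 ± 1.66% in D2-MSNs (SD, n = 6 each). Grik3 held 26.7 ± 3.60% in D1-MSNs, with a range of 20.3 to 30.0%, and 41.0 ± 1.30% in D2-MSNs, with a range of 39.5 to 42.5%. Libraries labelled female gave 23.2 ± 3.22% and 39.2 ± 2.98% for Grik3 (n = 5 each). Gria2 held 72.2 ± 2.43% of the AMPA sum in D1-MSNs and 72.7 ± 0.467% in D2-MSNs labelled male, and the share of Gria1 was 19.4 ± 1.96% and 19.2 ± 0.599%. The ranges of the Grik3 and Grik5 shares did not overlap between cell types, while those of all 4 AMPA shares did. In libraries labelled male the Grik2 shares did not overlap either, at 7.69 to 10.6% in D1-MSNs and 5.53 to 7.42% in D2-MSNs. Because shares sum to a whole, a larger Grik3 share lowers the Grik5 share even at an equal level.

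In nuclear libraries Grik3 held 20.8 ± 0.938% (n = 6) of the kainate sum in D1- and 26.4 ± 2.802% (n = 5) in D2-MSNs. These ranges overlapped, at 20.1 to 22.5% and 21.8 to 28.6%. Grik4 held 7.95 ± 2.92% and 16.2 ± 2.20% there, with ranges that did not overlap, and Grik2 and Grik5 held smaller mean shares in D2-MSNs. In whole cell libraries Grik3 held 15.2 ± 5.85% (n = 8) and 29.5 ± 4.65% (n = 6). Gria2 held 48.0 ± 2.37% and 40.8 ± 4.61% of the AMPA sum in nuclear D1- and D2-MSNs and 61.4 ± 7.16% and 55.8 ± 7.78% in whole cell D1- and D2-MSNs. Shares in these methods include background, and intron-bearing RNA counts over the gene body, so they are not the shares of messenger RNA.

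**Figure D5:**
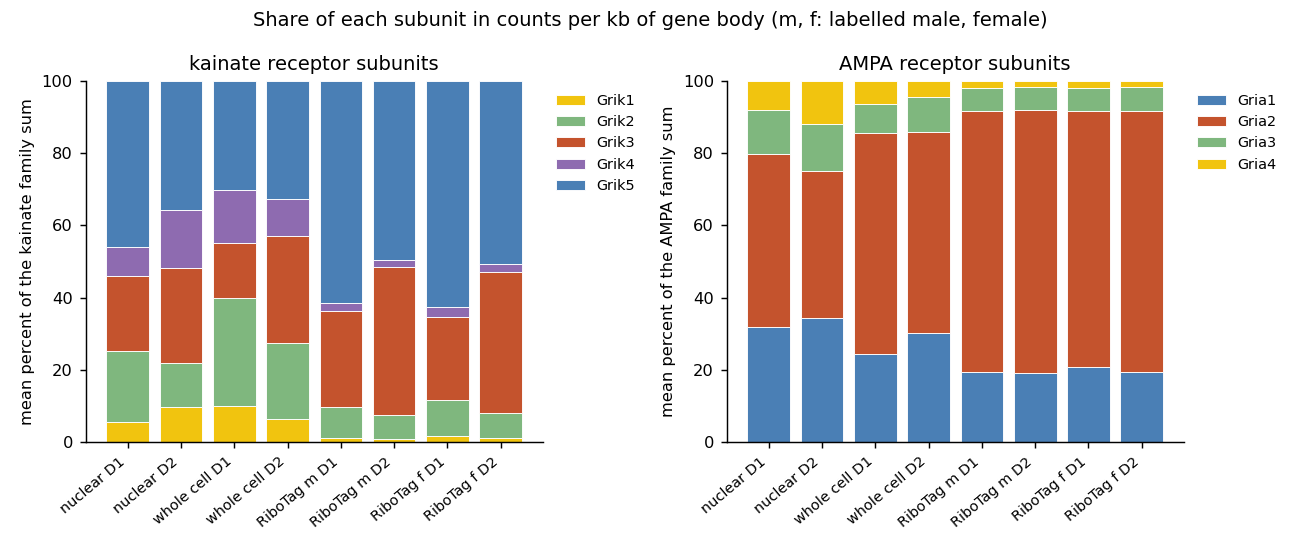
Mean share of each subunit in its family's sum of counts per kilobase of gene body, in percent, for the 8 groups. The Grik3 segment is larger in D2- than in D1-MSNs in each method, from 26.7 to 41.0% in RiboTag libraries labelled male, while the Gria2 segment there is 72.2 and 72.7%.

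Whether the difference between cell types itself differed between methods was tested by interaction terms in one fit of all libraries labelled male. Against RiboTag, the whole cell difference of no member passed: for Grik3 it was larger by 0.46 (95% interval -0.23 to 1.15, adjusted p = 0.657, edgeR), and 0 of 9 members passed, 1 at an unadjusted p under 0.05, where 0.359% of 10590 genes passed. Against nuclear libraries, the whole cell difference was larger for Grik3 by 0.99 (SE 0.350, adjusted p = 0.0264, edgeR), and 7 of 9 members passed, where 36.9% of genes passed. With background subtracted, the Grik3 value was 0.91 (adjusted p = 0.122, edgeR). Between nuclear and RiboTag libraries, Gria2 differed by -1.31 (SE 0.351, adjusted p = 0.00695, edgeR), and 4 of 9 members passed, where 28.3% of genes passed. Grik3 differed by -0.53 there (95% interval -1.27 to 0.20, adjusted p = 0.261, edgeR). The members' median was 0.102 for whole cell less RiboTag, 0.915 for whole cell less nuclear and -0.531 for nuclear less RiboTag, beside -0.0258, 0.0639 and -0.0948 over all tested genes. These fits hold nuclear genes that the FPKM filter removes, and background scaled to the length of all genes came to 32.5 to 52.3% of the total count in nuclear D2 libraries, against 0.578 to 22.2% in nuclear D1, 8.35 to 52.5% in whole cell and at most 0.0409% in RiboTag libraries labelled male. The part of background in these results was not tested.

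Between RiboTag libraries labelled male and female, the Grik3 difference was lower in the former by a log2 value of -0.19 (95% interval -0.44 to 0.06, adjusted p = 0.791, edgeR). None of 5 tested members passed, also at an unadjusted p under 0.05, and 0% of 7172 genes passed by edgeR, with 511 at an unadjusted p under 0.05. The level of Grik3 was higher in libraries labelled male by 0.09 (95% interval -0.03 to 0.22, adjusted p = 0.738, edgeR) and that of the X-linked Gria3 differed by -0.00051 (95% interval -0.10 to 0.10, adjusted p = 0.999, edgeR). Here 0.0837% of genes passed by edgeR, and no member of 5 passed, also at an unadjusted p under 0.05. Since 6 libraries went against their sex label, these values compare labels.

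The proteins that assemble, traffic and anchor these receptors were followed in a list of 35 genes. They include the TARPs (Cacng genes) and cornichons (Cnih2, Cnih3), which ride with AMPA receptors, Neto1 and Neto2, which ride with kainate receptors, the scaffolds Dlg1 to Dlg4, Grip1, Grip2 and Pick1, and the pentraxins Nptx1, Nptx2 and Nptxr, which cluster AMPA receptors from outside the cell. Among RiboTag libraries labelled male, 3 of 23 tested genes were called (2.56% of all genes), all lower in D2-MSNs, and in libraries labelled female 2 of 25 (1.9% of all genes), both lower. The list's median log2 fold change was 0.016 and -0.025 there, with medians of 0.001 and -0.0002 over all tested genes. In nuclear libraries 1 of 25 was higher and 1 lower, where 12.2% of all genes were called. None of 28 was called in whole cell libraries by edgeR, with 6 at an unadjusted p under 0.05, where edgeR called 1.06% of all genes. DESeq2 called 6 of the list, and it also called more genes in all than edgeR, as given under processing.

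Nptx1 was lower in D2-MSNs by -1.11 (SE 0.129, adjusted p = 1.13e-06, edgeR) in libraries labelled male, from a mean level of 1.73 to 0.796, and by -0.89 (SE 0.199, adjusted p = 0.0101, edgeR) in those labelled female. Olfm1, a secreted olfactomedin found with AMPA receptors, was lower by -0.89 (SE 0.122, adjusted p = 1.42e-05, edgeR) and -0.60 (SE 0.142, adjusted p = 0.0162, edgeR), and the pentraxin receptor Nptxr by -0.62 (SE 0.105, adjusted p = 0.000201, edgeR) in libraries labelled male. Markers of glutamatergic neurons moved with these genes. Slc17a7, their vesicular glutamate transporter, was lower in D2 libraries by -2.64 (SE 0.258, adjusted p = 7.85e-08, edgeR) in those labelled male, and the summed level of 5 such markers ran from 18.1 to 46.1 FPM (fragments scaled to library size) in D1 against 1.44 to 11.9 in D2 libraries. Of these 5 markers, 3 were tested and 2 were called lower in D2-MSNs. Their part in the pentraxin differences was not tested.

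In nuclear libraries, Gsg1l, an AMPA receptor auxiliary subunit, was higher in D2-MSNs by 0.51 (SE 0.128, adjusted p = 0.0191, edgeR), and the kainate receptor partner Neto1 was lower by -0.70 (SE 0.183, adjusted p = 0.0220, edgeR). The Neto1 difference was 0.11 (adjusted p = 0.339, edgeR) in RiboTag libraries labelled male. Neto2, the other kainate receptor partner, was higher in D2-MSNs there by 0.33 (SE 0.0728, adjusted p = 0.00363, edgeR), below the fold threshold of the call rule. In libraries labelled female it was at 0.25 (SE 0.0800, adjusted p = 0.0933, edgeR). Markers of other cell types were set beside the Grik3 difference in RiboTag libraries. No marker of astrocytes, endothelial cells, microglia or oligodendrocyte precursors passed the filter there. Of 7 interneuron markers 2 passed the filter, Sst and Npy, and both were lower in D2-MSNs in both sets, unlike the cholinergic markers Chat and Slc5a7 of the same list, with summed levels of 14.4 to 16.5 FPM in D1 and 9.46 to 17.3 in D2 libraries labelled male. Oligodendrocyte markers summed to 31.2 to 39.1 in D1 and 34.1 to 48.7 in D2 libraries labelled male, with 2 of 3 tested markers higher in D2-MSNs, and none of 4 was called in libraries labelled female. The part of these cells in the Grik3 difference was not tested.

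The genes whose level followed each member across libraries were ranked by the mean Pearson correlation over the 4 sets, among 10488 other genes. For Grik3 the closest was Drd2 itself, with a mean r of 0.824, from 0.417 in nuclear to 0.973 in RiboTag libraries labelled male, followed by Gm37711 (0.817) and Nrxn2 (0.814). These correlations span both cell types, so a gene that differs between them shares that difference. Gria1 was closest to Negr1 (0.947), Dlg2 (0.928) and Dcc (0.922), Gria2 to Gripap1 (0.908), Gria3 to Lrrc7 (0.911), Grik2 to Pcdh9 (0.916) and Grik5 to Slc6a6 (0.789). Grik1 was closest to Slc9a9 (0.872), Grik4 to Cdh4 (0.855) and Gria4 to Pcdh9 (0.855). The genes closest to Gria1 span 754.7, 1973 and 1097 kb, and libraries of a set share background and depth, so the correlations are given as descriptions over 11, 14, 12 and 10 libraries.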

How the data were processed

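The authors prepared ribosome-depleted, stranded SMARTer libraries, aligned paired reads to GRCm38 with HISAT2 2.0.5 and counted fragments per Ensembl gene with featureCounts. The deposited counts cover whole gene bodies, ignore strand, count a fragment for each gene it overlaps and leave out fragments with several alignments, without normalization. Because intronic fragments count, long genes gather more background. Members and gene lists were chosen with earlier results of these data known. The table holds 49 columns. The lanes of whole cell D2 number 3 were summed, and a second column named for whole cell D1 number 1 was added to that library, giving 47 libraries. Chi-square per degree of freedom was 1.04 between the lanes, 6.26 between the columns of D1 number 1 and 5.53 for the closest other whole cell D1 pair, so whether the second column is the same mouse could not be settled (the labels count 8 whole cell D1 and 8 D2 samples, the column names 8 D1 and 6 D2 numbers). Gene lengths came from GENCODE vM21 by identifier (52489 of 52636 genes, 99.72%).

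Genes needed more than 1 FPM (fragments scaled to library size) in at least 2 libraries. A second filter used FPKM over the gene span: for nuclear and whole cell sets 1 or more in any library with none above 50000, for RiboTag 0.1 or more in 2 libraries. This FPKM was scaled by size factors, so it differs from the TMM-scaled levels given above. Tests were run in edgeR 4.0.16 (TMM, quasi-likelihood, Benjamini-Hochberg over all tested genes), with DESeq2 1.42.0 as an alternative, and ratios by exact permutation in SciPy 1.17.1. SE was the absolute log2 fold change over the square root of F. Background was the count per kb of 1429 olfactory and vomeronasal receptor genes. A count of 3 corresponds to 0.0436 to 0.811 CPM, which covers counting error only. The fits were tested on simulated data. The genes named are the 9 members, called partners (at most 8), Neto2, the 3 closest genes of each member by mean correlation, Drd1, Drd2 and cell type markers. By the methods of the authors, every sample is from its own mouse. Exon-only counts were not used here.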

Additional observations from a re-analysis of the deposited data

Results flagged for a closer look

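In 72 groups of 5 to 8 libraries, one for each member and group, 3 levels stood apart from the rest of their group by Dixon's criterion, where chance flags about 1 in 20 groups. Grik2 reached 0.0405 in RiboTag D1 number 1 labelled male, against 0.0289 to 0.0318 in the others. Grik4 reached 0.0139 in RiboTag D2 number 6 labelled female, against 0.0103 to 0.0113. Gria1 reached 0.336 in RiboTag D2 number 1 labelled female, against 0.309 to 0.314.

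The D2 against D1 difference was more positive in whole cell than in nuclear libraries for Grik2 by 0.74, Grik3 by 0.99, Grik5 by 0.915, Gria1 by 1.45, Gria2 by 1.25 and Gria3 by 1.41 on the log2 scale, and more negative for Grik4, at -1.15. All of these passed edgeR's test of the interaction. The nuclear difference was more negative than the RiboTag difference in libraries labelled male for Grik2 (-0.64), Gria1 (-0.99), Gria2 (-1.31) and Gria3 (-1.0). With background subtracted, 4 members passed in place of 7 for whole cell against nuclear, and 1 in place of 4 for nuclear against RiboTag. Before subtraction 36.9% and 28.3% of all genes passed. The shares after subtraction are not given here, so these counts cannot be set against them.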

How the results depend on the processing

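Grik3 in both RiboTag sets kept its direction and its call under every alternative run, at 0.89 to 1.04 in libraries labelled male and 1.07 to 1.24 in those labelled female, omissions of 1 library included. The nuclear results changed most. Without the FPKM filter, nuclear libraries gave 7274 genes and 7 members called, with Grik3 at -0.26, Grik5 at -0.99 and Gria4 at -1.07, and with exons as length 7350 genes and 7 members, with -0.22, -0.95 and -1.02. DESeq2 without the filter gave 10915 genes and 7 members (Grik5 -0.67, Gria4 -0.76), and background subtraction without the filter 5173 genes and 6 members (Grik5 -0.38, Gria4 -0.98). Background subtraction with the filter kept left 1 member called there, with Gria4 at -0.39. These alternatives change which genes are tested and scaled on, and the cause was not tested.

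In whole cell libraries, DESeq2 called 707 genes and 3 members (Grik2 0.0675, Gria2 0.0908), edgeR with DESeq2 size factors 1 member (Grik2 0.0675, Gria2 0.0908), no FPKM filter 34 genes and 1 member (Grik2 0.10, Gria2 0.12), and exons as length 26 genes and 1 member (Grik2 0.10, Gria2 0.11). Background subtraction gave 1 member (Grik2 0.0131), and 38 genes without the filter (Grik2 0.0490), the repeat run as its own library 328 genes and 1 member, and lanes kept apart 510 genes and 1 member. RiboTag libraries labelled male gave 333 genes without the filter and 331 with exons as length.

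Same-numbered libraries did not deviate together (r of -0.376 to 0.277 in nuclear, -0.33 to 0.148 in whole cell, -0.0454 to 0.0804 and -0.0442 to 0.0424 in RiboTag sets). With 4 to 6 pairs per set, whether they share more than a number could not be settled. A replicate block left 0 genes and 0 members called in nuclear libraries (Grik3 0.76, adjusted p = 0.151; Grik5 -0.0063, Gria4 -0.015, edgeR) and 63 genes and 1 member, Grik3 at 1.82, in whole cell libraries.

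With background subtracted, 4 members differed between whole cell and nuclear and 1 between nuclear and RiboTag (Grik5 0.14), 63 genes differed between whole cell and RiboTag, the sex-label level of Gria3 was 0.00019, and the whole cell Grik3 to Gria2 ratio differed by 1.92. The share of all genes beside these member counts is not given here. Per kb of exons, Grik3 held 17.4 and 19.2% of the kainate sum in nuclear D1 and D2, 22.1% in whole cell D2, 32.0 and 47.2% in RiboTag labelled male and 27.15 and 45.2% in RiboTag labelled female. Gria2 then held 13.1 and 10.01% of the AMPA sum in nuclear, 20.9 and 17.5% in whole cell, 29.97 and 30.5% in RiboTag labelled male and 28.6 and 30.2% in RiboTag labelled female.

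Leaving out 1 library at a time gave 370 to 1489 genes and 1 to 3 members called in nuclear and 59 to 624 genes and 0 to 1 member in whole cell libraries. Gria4 then ran from -0.0925 to 0.15 and Gria2 from -0.87 to -0.55 in nuclear libraries. Grik3 ran from 1.15 to 1.49, Grik2 from -0.18 to 0.0952 and Gria2 from -0.18 to 0.17 in whole cell libraries, Grik5 from -0.0061 to 0.0535 in RiboTag labelled male and Gria1 from -0.0885 to 0.0246 in RiboTag labelled female. Grik1 rested on 24 to 151 counts per RiboTag library, which limits what could be detected for it.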
